A study of Homo sapiens with 2 samples.

Results

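The 9 loci described here encode antigen-presenting molecules, a ligand of natural killer cells and the transactivators that switch these genes on. They are HLA-B, HLA-C, HLA-E, HLA-F, MICA, HLA-DRA and HLA-DOA in the major histocompatibility complex (MHC) on chromosome 6, and NLRC5 and CIITA on chromosome 16. A binding summit was taken when its nearest gene was 1 of the 9, at any distance, or when it lay within 50 kb of their RefSeq spans. This gave 5 of the 1986 summits in the deposited list. The list comes from chromatin immunoprecipitation followed by sequencing (ChIP-seq) for IRF1 in NB4, an established human acute promyelocytic leukemia line with the PML-RARA fusion. The study had 1 library of NB4 cells treated with ATRA (all-trans retinoic acid) for 4 hours and 1 control library of NB4 cells, for which the labels' treatment protocol names DMSO. The list of treated cells was the one analysed, so the data give sites called in treated cells and no change under treatment. With 1 library there is no spread between replicates, no test was run, and all values below describe this single list.

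MHC class I molecules, a heavy chain such as HLA-B or HLA-C paired with B2M, show peptides from inside the cell to CD8 T cells. Class II molecules such as the HLA-DR pair show peptides from the endocytic route to CD4 T cells. NLRC5 is the transactivator of class I genes and CIITA that of class II genes, and both are induced by interferon gamma. IRF1 is a transcription factor of the interferon response that binds the interferon-stimulated response element, a repeat of GAAA with a short spacer. Class I promoters are known to hold such an element beside a kappa B site, upstream of the module on which the transactivators assemble, which contains a CCAAT box.

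The promoters of HLA-C, HLA-B and HLA-F are shown because HLA-C had a summit inside this window, whereas HLA-B and HLA-F had none although their letters are closely related. Each runs from 250 bases before the RefSeq start base to 50 bases from it, is written 5′ to 3′ in the direction of transcription and comes from RefSeq (GRCh38.p14). Capitals mark, from left to right, any early CCAAT match, the kappa B site or its nearest relative, the response element, and further CCAAT matches on either strand.
HLA-C, chr6:31272043-31272342, minus strand: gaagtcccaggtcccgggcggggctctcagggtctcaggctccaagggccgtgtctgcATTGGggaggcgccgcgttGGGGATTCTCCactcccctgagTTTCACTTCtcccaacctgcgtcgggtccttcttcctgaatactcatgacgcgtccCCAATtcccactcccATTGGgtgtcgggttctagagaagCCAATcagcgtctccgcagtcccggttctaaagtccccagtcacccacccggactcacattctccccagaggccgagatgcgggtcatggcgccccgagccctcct
HLA-B, chr6:31357130-31357429, minus strand: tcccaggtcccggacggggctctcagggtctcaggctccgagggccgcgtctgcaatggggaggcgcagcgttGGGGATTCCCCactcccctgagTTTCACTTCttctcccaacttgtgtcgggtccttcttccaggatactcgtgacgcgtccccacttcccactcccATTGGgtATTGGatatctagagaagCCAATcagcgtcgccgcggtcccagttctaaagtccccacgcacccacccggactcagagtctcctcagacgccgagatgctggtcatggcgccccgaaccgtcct
HLA-F, chr6:29723184-29723483, plus strand: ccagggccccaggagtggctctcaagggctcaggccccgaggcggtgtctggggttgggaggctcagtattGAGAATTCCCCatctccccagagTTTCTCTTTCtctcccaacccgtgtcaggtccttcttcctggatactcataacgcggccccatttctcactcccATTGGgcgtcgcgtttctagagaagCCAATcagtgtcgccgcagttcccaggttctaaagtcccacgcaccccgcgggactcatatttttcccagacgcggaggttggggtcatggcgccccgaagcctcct

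Summits were found at NLRC5, HLA-DOA, MICA and HLA-C, whereas HLA-B, HLA-E, HLA-F, HLA-DRA and CIITA were the nearest gene of none. That is 4 of 9 loci with a row in the list, against 6.38% of 19970 protein-coding genes on chromosomes other than Y. With the window of 50 kb around the span, 5 of 9 loci had a summit, against 15.1% of those genes. Across the MHC interval described below, 10.2% of the 128 protein-coding genes had a row and 37.5% had one in the window. The members were chosen with results of these data known, so their counts are a description only.

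The authors' peak score has no stated scale and was read only as an order within the list, where it ran from 8.28 to 321 with a median of 25.2. NLRC5 had a score of 101 at chromosome 16 position 56989538, which ranked 158 of 1986. HLA-DOA had 98.0 at chromosome 6 position 33019112, which ranked 168. These summits scored above 92.0% and 91.5% of the list. The HLA-C summits had 27.4 at position 31271462 and 19.98 at position 31272259, with ranks 894 and 1306. MICA had 21.7 at position 31400691 and ranked 1158. Low scores were often tied, with 22 summits at the score of MICA and 19 at the lower HLA-C score. The 5 summits thus fell into 2 at about 100 and 3 near the middle of the list, 2 of them below its median.

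NLRC5, the class I transactivator, carried the highest score of the 9 loci, and its summit was classed by the authors as intergenic and in a CpG island. The authors' annotation put it 27536 bp upstream of the NLRC5 start site, which corresponds to position 57017074. The RefSeq span of NLRC5 (GRCh38.p14, chromosome 16, 56989557 to 57083520) begins 19 bp downstream of the summit and 27.5 kb before the authors' start site. The plus strand was read from the authors' signed distance, since it alone puts their start site inside the span. The summit therefore lay at the 5′ edge of the gene in the newer annotation. It sat in a gap of 155 bp between NLRC5 and the non-coding RNA gene LOC124903696, whose span ends 137 bp away. The next protein-coding span, that of the lipid transfer protein gene CETP, was 5.69 kb away.

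Distant summits of the list were also set against the ends of RefSeq spans. Summits near the authors' start sites are left out of this set by definition. A low share near span ends is therefore built in and does not show that NLRC5 is unusual. Of the 1012 summits that the authors' annotation put more than 10 kb from a start site, 6 lay within 100 bp of an end of a RefSeq protein-coding span (0.593%). NLRC5 had the highest score of these 6, the next being 38.0. Among all 1012 distant summits, 61 scored above it, and among the 731 intergenic summits it ranked 48, against a class median of 24.8. A search limited to 10 kb of the authors' start sites leaves this summit out.

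MICA encodes a stress-induced ligand of the receptor NKG2D on natural killer cells and is related to class I heavy chains. Its summit lay in the first exon of the transcript NM_001289153, classed as 5′ UTR, 907 bp downstream of the authors' start site at position 31399784. The RefSeq span of MICA (chromosome 6, 31400711 to 31415315) begins 20 bp beyond the summit. As at NLRC5, the summit sat between the protein-coding gene and a non-coding one, here in a gap of 240 bp between MICA and MICA-AS1, whose span ends 221 bp away. Over the list, 33 summits (1.66%) lay outside all RefSeq spans in a gap of under 500 bp, and 65 (3.27%) lay within 20 bp of an end of a protein-coding span. The score of MICA ranked 27 of the 39 summits in 5′ UTRs, whose median was 33.1.

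**Figure D1:**
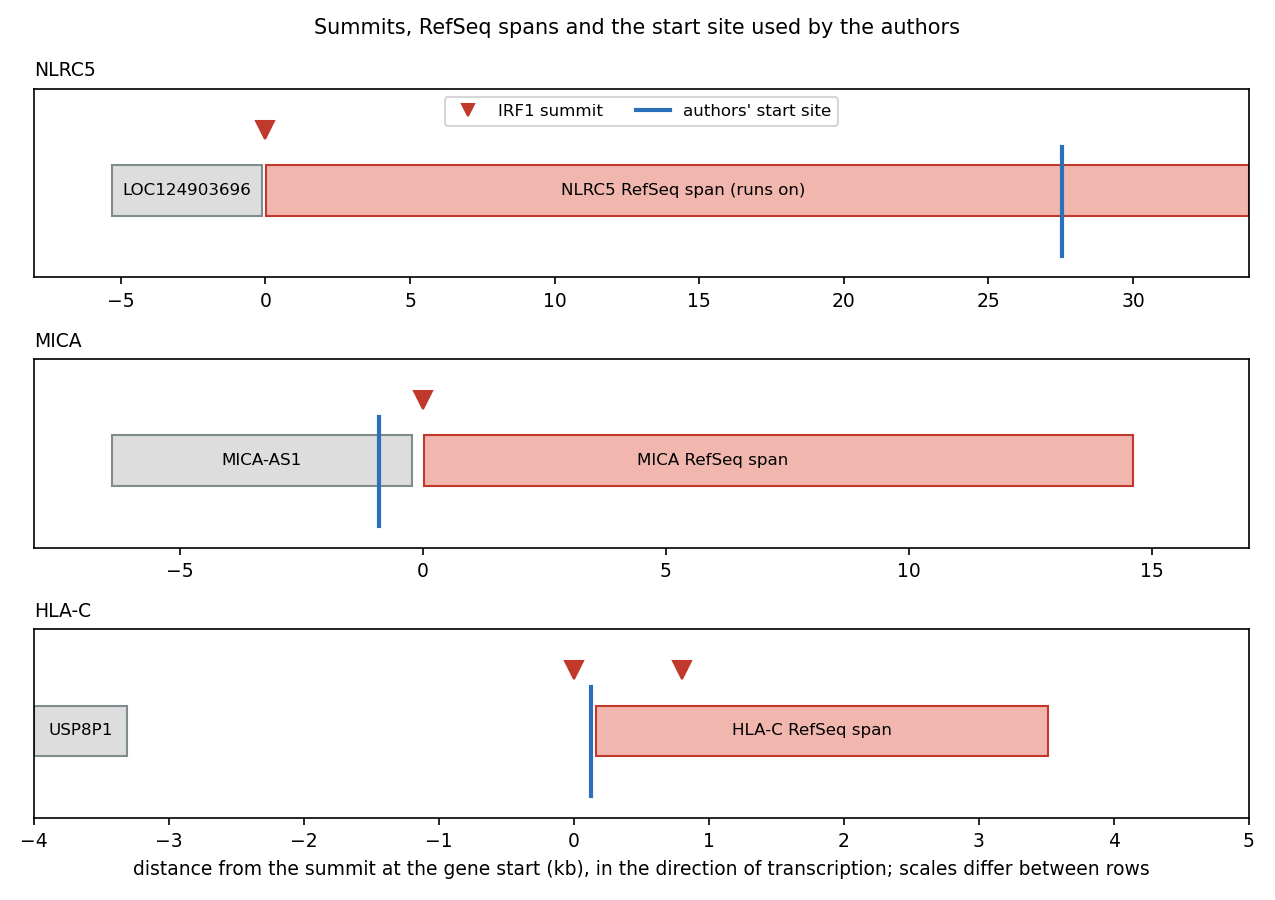
Positions of summits (triangles), RefSeq spans (bars) and the authors' start site (blue line) at NLRC5, MICA and HLA-C, in kb from the summit at the gene start; scales differ between rows. The NLRC5 and MICA summits lie 19 and 20 bp before the RefSeq span, whereas the authors' start sites lie 27.5 kb and 0.927 kb from its edge.

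The RefSeq promoter table holds a later MICA start, with a window at chromosome 6, 31403345 to 31403644. This window begins 2.65 kb downstream of the summit and holds none. MICA thus has 3 starts in the annotations used here, and the summit lay nearest to the middle one.

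HLA-C, a classical class I heavy chain and a ligand of killer-cell immunoglobulin-like receptors, was the single member with 2 summits. They lay 797 bp apart, 1 on each side of the start. The upstream summit was 123 bp before the authors' start site and 167 bp before the RefSeq start (span 31268749 to 31272092, minus strand), inside the promoter printed above. The other lay in intron 2 of 7, in a CpG island, 674 bp downstream of the authors' start site. The intronic summit had the higher score. Within their classes the intronic summit ranked 298 of 698 and the promoter summit 251 of 384, against class medians of 24.8 and 27.6. HLA class I genes are near-identical in places, and how reads that match more than 1 of them were placed is not given in the sources used here, so the split of signal between HLA-C and its relatives is uncertain.

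HLA-DOA, a subunit of the modulator of class II peptide loading, had a summit in intergenic sequence, 9500 bp upstream of the authors' start site and 9521 bp from its RefSeq span (chromosome 6, 33004182 to 33009591, minus strand). No repeat or CpG island was named there. HLA-DOA was the closest coding span, followed by the bromodomain gene BRD2 at 37.6 kb and the class II gene HLA-DPA1 at 45.5 kb. Among the 731 intergenic summits its score ranked 52, near the rank of 48 for NLRC5. No summit lay inside the span of HLA-DOA or in its promoter window.

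The members without a row differed in how far away the nearest summit was. HLA-B (31353875 to 31357179), the classical heavy chain next to MICA, lay 43.5 kb from the MICA summit, just inside the window. Its next summit, the upstream one of HLA-C, was 81.6 kb away. Just outside the window of HLA-C itself were 2 summits of the non-coding gene HCG27, with scores of 63.0 and 19.2 at 64.7 and 64.4 kb from its span. HLA-E (30489509 to 30494194), the non-classical ligand of the receptor CD94/NKG2A, lay 189 kb from a summit of PPP1R18 with a score of 12.6. HLA-F (29723434 to 29738532), another non-classical heavy chain, lay 475 kb from a TRIM26 summit with a score of 29.5. CIITA (chromosome 16, 10866206 to 10943021), the class II transactivator, was 283 kb from a SOCS1 summit with a score of 21.3. HLA-DRA (32439887 to 32445046), the alpha chain of HLA-DR, was 394 kb from the TAP2 summit with a score of 301. A missing summit means that none was called in this list and does not show that IRF1 was absent, since read depth and the threshold of the calling are unknown.

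**Figure D2:**
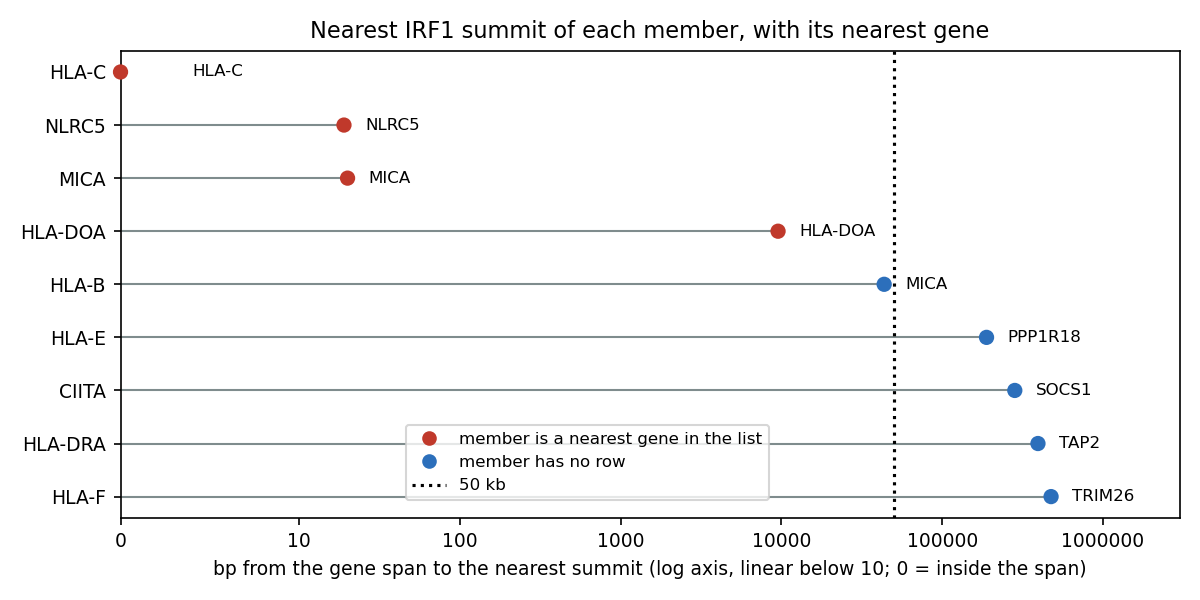
Distance in bp from the RefSeq span of each member to the nearest summit (log axis, linear below 10), with the nearest gene of that summit beside the point. HLA-C, NLRC5 and MICA lie within 20 bp, HLA-DOA at 9521 bp, HLA-B at 43512 bp, and the other 4 members beyond the dotted 50 kb line.

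In the MHC, from the start of HLA-F to the end of HLA-DPB1 (chromosome 6, 29723434 to 33089696, 3.37 Mb), 16 summits were listed, of which 4 belonged to members. Their scores had a median of 28.5 and ran from 12.6 to 301. The 4 that exceeded 100 were those of TAP2, PSMB8, TAP1 and PSMB9, the transporter and immunoproteasome genes. The HLA-C and MICA summits thus scored below these 4 summits of the same interval, and the HLA-DOA summit came next after the 4. The widest gap between summits ran for 1.06 Mb, from position 31777262 to 32838774. It contained HLA-DRA and in all 8 of the 14 listed class II genes. The share of all coding genes of the interval that lie in this gap was not counted. The 8 therefore do not show a lack particular to class II genes. HLA-DOB, among the 8, had 4 summits within 50 kb.

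**Figure D3:**
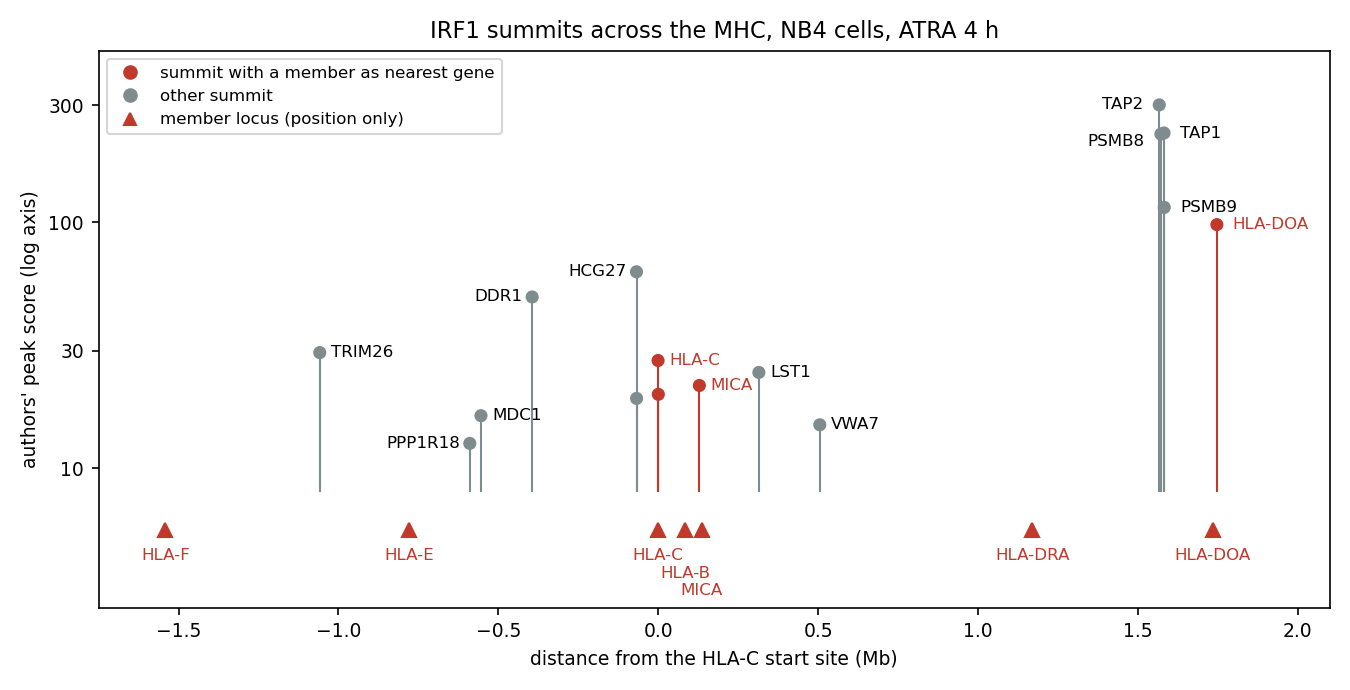
Authors' peak score (log axis) of the 16 summits of the MHC by distance from the HLA-C start site in Mb, with the members' positions as triangles below. The summits of HLA-C and MICA lie between 19.98 and 27.4, that of HLA-DOA at 98.0, and no summit lies within 100 kb of HLA-F, HLA-E or HLA-DRA.

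In the promoter windows, the full response element core (GAAA, any 2 bases, GAAA), searched on both strands, was found in 1 of the 5 members with a window in the table, HLA-F. The windows of HLA-B, HLA-C and MICA held a core that is 1 A shorter, GAANNGAAA, and HLA-DOA held neither. The shorter form was searched after the letters of these promoters had been seen, and matches of the 2 forms can overlap. Over all 35116 windows of 300 bases, from 27305 genes and with some genes counted more than once, 3.57% held the full core and 7.66% the shorter one. Windows that contained a summit numbered 302, and of these 38.7% held the full core and 29.5% the shorter one, against 3.27% and 7.47% of the 34814 windows without a summit. The table has no window for HLA-E, HLA-DRA, NLRC5 and CIITA.

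The elements are printed with 10 bases on each side, to set the members beside B2M, TAP1, TAP2, PSMB8 and TAPBP. These are examples of pathway genes whose windows held both a summit and a full core. ERAP1, ERAP2, PSMB10, PSME1 and PSME2 held both as well and are not printed. The immunoproteasome gene PSMB9 and the loading gene TAPBPL had neither in their windows and are not shown. The TAP1 summit, at position 32853840, lay just before the PSMB9 window, which begins at 32853942. Capitals mark the core, on whichever strand it lies.
HLA-C, chr6:31272225-31272253, minus strand: ctcccctgagTTTCACTTCtcccaacctg
HLA-B, chr6:31357316-31357344, minus strand: ctcccctgagTTTCACTTCttctcccaac
HLA-F, chr6:29723268-29723297, plus strand: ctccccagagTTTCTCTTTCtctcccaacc
MICA, chr6:31403454-31403482, plus strand: ccactggaatTTTCTCTTCcaagcgtggc
B2M, chr15:44711363-44711398, plus strand: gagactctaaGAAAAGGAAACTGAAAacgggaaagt
TAP1, chr6:32853813-32853848, minus strand: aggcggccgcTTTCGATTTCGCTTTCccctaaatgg
TAP2, chr6:32838778-32838807, minus strand: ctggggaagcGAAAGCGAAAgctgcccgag
PSMB8, chr6:32844032-32844061, minus strand: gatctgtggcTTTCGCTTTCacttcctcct
TAPBP, chr6:33314073-33314108, minus strand: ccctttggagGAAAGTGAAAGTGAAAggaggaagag

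B2M, TAP1 and TAPBP held 2 overlapping full cores, and TAP2 and PSMB8 held 1. The genes with both features that are not printed, ERAP1, ERAP2, PSMB10, PSME1 and PSME2, also held 1 each. In the reference sequence, the 10 letters before the core and the core itself were the same in HLA-C and HLA-B, which differ in having a summit. The letters of the NB4 cells were not read and may differ. The split of reads between these genes is also uncertain, as stated above. HLA-F, with a full core, had no summit in its window, as was the case for most windows of this kind, since 9.32% of the 1255 windows with a full core contained a summit. A match describes letters and does not show a site that is bound.

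At HLA-C the summit lay 16 bp from the nearer end of the short core, which spans 151 to 143 bases before the start. In the 117 windows that held both a summit and a full core, the median distance was 11 bp, with quartiles of 6 and 22 bp. The HLA-C summit itself, 167 bases before the start, fell on the kappa B-like letters at 173 to 163 bases before it. Set against the kappa B site as HLA-B has it in capitals above, with positions counted from 1 at its 5′ end, HLA-C carried the substitution C9T and HLA-F carried G2A and G4A. HLA-B's 11 letters, the exact site searched for, were found in 11 windows on either strand (0.0313%). None of those windows contained a summit, against 0.860% of all windows, and 11 windows are too few to show a lack. CCAAT on either strand was found in all 5 member windows, against 34.6% of all windows. The STAT site TTCNNNGAA was in none of the 5, against 7.66% of all windows, a share at which none of 5 does not stand out.

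**Figure D4:**
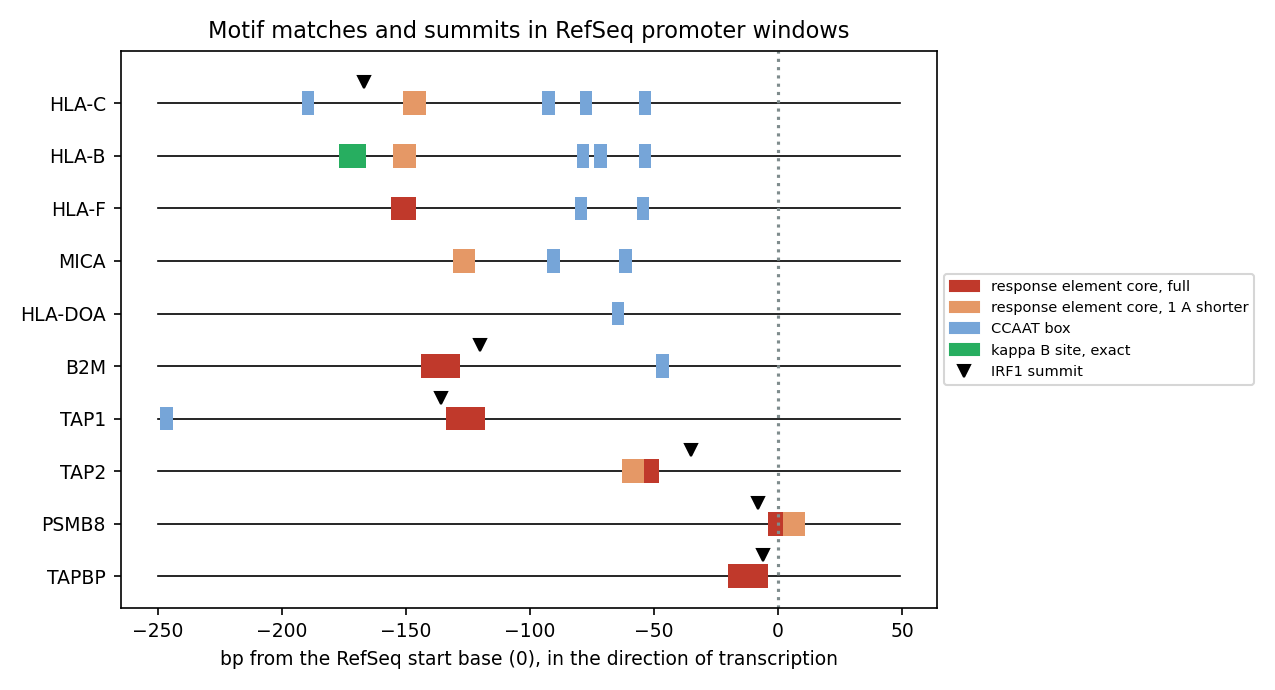
Motif matches (coloured blocks) and IRF1 summits (black triangles) in the RefSeq promoter windows of 5 members, B2M and 4 loading or proteasome genes, in bp from the start base. The HLA-C summit lies 167 bp before the start and 16 bp from a short core, whereas HLA-B, HLA-F, MICA and HLA-DOA have no summit in the window.

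Aligned end to end, the HLA-C and HLA-B promoters were identical at 269 of 296 aligned bases (90.9%), HLA-C and HLA-F at 243 of 292 (83.2%) and HLA-B and HLA-F at 243 of 295 (82.4%). Alignments of these 3 with the MICA and HLA-DOA windows, which needed 88 or more gapped bases, gave 68.7% to 73.4%. MICA and HLA-DOA gave 71.8% with each other. Gapped bases are left out of these percentages and no unrelated promoters were aligned, so values at this level do not show relatedness.

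Among the other genes of the pathway, all 11 listed genes of class I loading and the proteasome, which supply peptides to the heavy chains, were the nearest gene of a summit, with best scores from 55.7 to 321 and a median of 221, and 9 of the 11 had a full core in a promoter window. A list of 11 genes held class I heavy chains, class I-like genes and B2M, the light chain that pairs with the heavy chains. Of these 11, 2 had a row: HLA-C, with a best score of 27.4, and B2M, with a best score of 101. HLA-C was thus the only heavy chain or class I-like gene of the list with a row. Both best scores belong to summits outside the promoter windows. That of HLA-C is the intronic summit, and that of B2M lay 1196 bp downstream of the authors' start site. MICA was the only 1 of 8 NKG2D ligand genes with a row, and HLA-DOA the only 1 of 14 class II genes. Of the 9 transactivator and enhanceosome genes, which include the RFX and NFY subunits, NLRC5 alone had a row. No class II gene with a window in the table (13 genes) held a full core, and 12 of them held CCAAT. Over all windows the shares were 3.57% for the full core and 34.6% for CCAAT. With a share as low as 3.57%, 13 genes without a full core do not stand out. These lists were compared as counts only, beside the 6.38% of protein-coding genes with a row. In lists this short, 1 gene with a row does not stand out from that share. With the 50 kb window, 5 of 11 class I and class I-like genes and 1 of 8 NKG2D ligand genes had a summit. The same held for 3 of 14 class II genes and 2 of 9 transactivator and enhanceosome genes, against 15.1% of protein-coding genes.

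**Figure D5:**
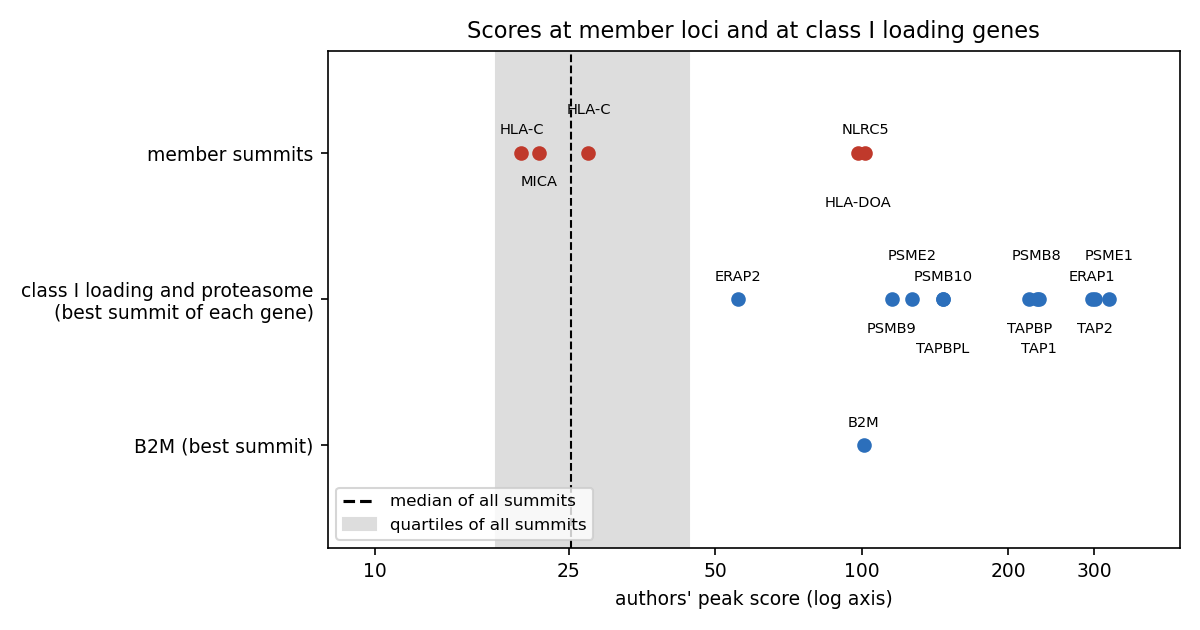
Authors' peak score (log axis) of the 5 member summits, of the best summit of each class I loading and proteasome gene, and of B2M; the dashed line is the median of all summits (25.2) and the grey band runs between their quartiles (17.7 to 44.0). NLRC5 and HLA-DOA lie near 100, while HLA-C and MICA lie in the band and all 11 loading genes lie above it.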

How the data were processed

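IRF1 ChIP-seq of NB4 cells was described from the summits deposited for the ATRA library. The submitters' processing notes name the build hg38, MACS 1.4.2 and Bowtie2 2.2.9. HOMER's annotatePeaks.pl assigned classes and nearest genes, per the file headers. The deposited peak score is the authors' value with no stated scale. No source used here gives the threshold, the background or the treatment of reads that map to several places, and depth is unknown. If control cells served as background, a site bound equally in both could be missing from the list.

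Positions are 1-based on hg38. Of the 1986 summits, 1977 had a nearest gene that was found by Entrez identifier in a RefSeq table of GRCh38.p14, whose spans and promoter windows were used. Distances run from summit to span. Motifs were matched exactly, and promoters were aligned with Biopython 1.88. Counting steps were tested on simulated data. All members and every summit in the window are named, with pathway genes that had a row. Members and lists were chosen with earlier results of these data known.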

Additional observations from a re-analysis of the deposited data

How the results depend on the processing

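Leaving out a replicate was not possible with 1 library. No paired analysis was possible because the list covers 1 library. Restricting the list to scores at or above the median left 3 members with a summit in the 50 kb window (5 before) and 3 summits, both in the window and by nearest gene (5 before), against 8.90% of all protein-coding genes by window and 3.56% by nearest gene, since HLA-C's promoter summit and MICA's, which also serves HLA-B, scored lower. Within 1 kb of the authors' start sites, 2 members (2.03% of all protein-coding genes) and 3 summits remained, which leaves out NLRC5 and HLA-DOA. The shorter core GAANNGAAA, chosen after seeing the data, gave 3 member promoters against 1 with the full core, and the planned GAAANNGAA gave 1. Windows of 10, 20 and 100 kb gave 4, 4 and 5 members, against 7.46%, 9.53% and 22.8% of all protein-coding genes. Start sites in place of spans gave 5 of the 6 members with a known strand, against 11.3% of 15812 genes with a start site. NLRC5 is among the 6 only because its strand was read from its summit. HLA-E, HLA-DRA and CIITA, without a summit in the window, had no known strand and dropped out. This count is therefore not comparable with that share. Merging summits under 200 bp apart changed no count of members. Omitting chromosome 21, chosen after seeing the data, is no check, since all members lie on chromosomes 6 and 16. Motifs in windows around summits were not run, as no genome was used here.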
